A study of Mus musculus with 6 samples.

Results

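The genes described here encode the neurofilament subunits (Nefl, Nefm, Nefh and Ina) and the neuronal microtubule proteins (Map2, Mapt, Map1a, Map1b, Tubb3 and Stmn2). They were taken by gene symbol, and all 10 were found among the 21959 genes of the deposited table, each on 1 row. All 10 also passed the filter on low counts that left 14259 genes for testing. Their levels were measured in bulk RNA by sequencing libraries from the paraventricular thalamus, a region along the midline of the thalamus. The CCI libraries, replicates 1 to 3, came from wild-type mice after chronic constriction injury, in which loose ties around a nerve produce lasting neuropathic pain. The other group, PVT_WT replicates 4 to 6, came from wild-type mice listed with no treatment, so nerve injury and the surgery around it cannot be told apart. The labels give no strain, age, sex, time after injury or sham group, and name the tissue only as brain. The design text states 30 mice per group and not how they were divided among libraries. Each library may hold pooled animals, and p-values measure the spread between libraries, which may be technical. In bulk tissue, fewer cells of a type and less RNA per cell cannot be told apart.

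Neurofilaments are the intermediate filaments of neurons. They are built from light, medium and heavy subunits together with alpha-internexin, fill large myelinated axons and set their calibre. Microtubules run through axons and dendrites as polymers of alpha- and beta-tubulin, and microtubule-associated proteins bind along them, space them and stabilise them. Stathmins do the reverse and hold free tubulin dimers.

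Total counts were 7989139 to 10529886 in the CCI libraries and 12337448 to 15438268 in the PVT_WT libraries, and 16621 to 16959 genes against 15800 to 16182 had at least 1 count. Over all 14259 tested genes 7461 passed an adjusted p of 0.05 (edgeR's quasi-likelihood test with Benjamini-Hochberg adjustment). PVT_WT replicate 5 stood apart: its correlation on log2(FPKM + 1), a description over genes, was 0.973 with replicate 4 and 0.976 with replicate 6, against 0.995 between those. Its 50 most abundant genes held 20.7% of its counts, against 14.2% in replicate 4 and 14.5% in replicate 6. Several of the genes below lay far from the other controls in that library.

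Of the 10 genes, Map2 and Map1a rose in CCI, Nefl and Map1b fell, and the other 6 did not pass (edgeR's quasi-likelihood test, adjusted over all tested genes). Over all tested genes 27% rose and 25.3% fell, 52.3% in either direction, so the counts of 2 and 2 among 10 stand near that background. The median log2 fold change of the 10 genes was -0.08, against 0.06 over all tested genes. The fold changes ran between -1.73 for Map1b and 0.66 for Map1a. In 5 of the 10 genes the CPM (counts relative to the TMM-scaled library total) of the groups did not overlap, with 2 higher and 3 lower in CCI, against 63% of tested genes (33.6% higher and 29.4% lower). The plot of levels by library shows each gene.

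**Figure D1:**
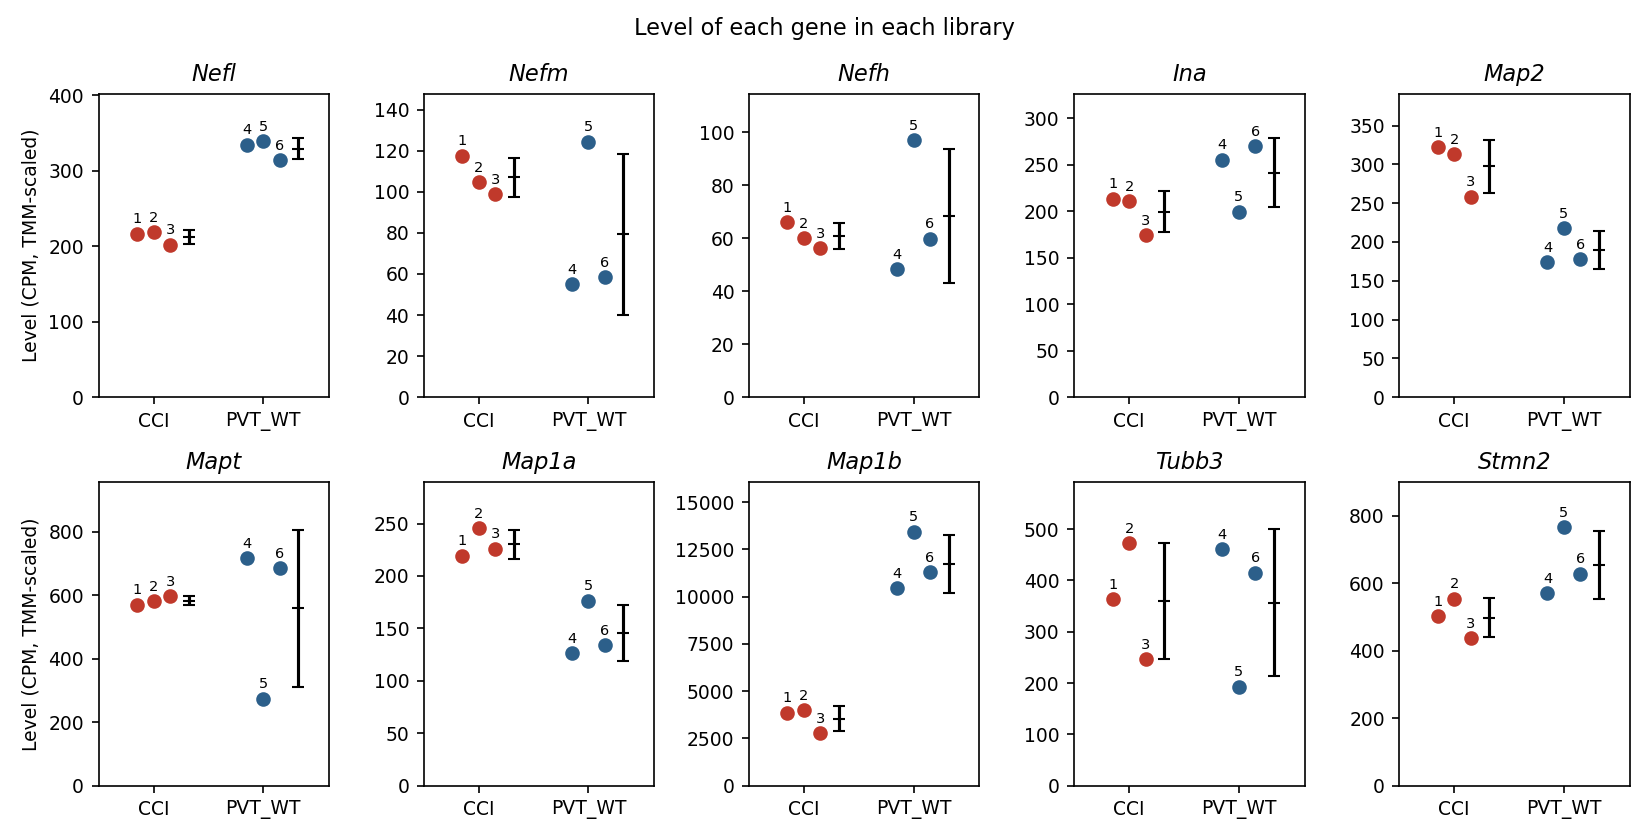
Level of each gene in each library, in CPM scaled by TMM, on axes that start at 0, with CCI in red and PVT_WT in blue. Numbers are replicates, and the bar gives the mean and SD of 3 libraries. Map1b lies between 2779 and 3980 CPM in CCI and between 10446 and 13431 CPM in PVT_WT, and PVT_WT replicate 5 lies apart from replicates 4 and 6 for Nefm, Nefh, Mapt and Tubb3.

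Among the neurofilament subunits, only Nefl (ENSMUSG00000022055) passed the test with all libraries, and it was lower in CCI. Nefl, the light subunit that filaments need to assemble, is on chromosome 14 (68321312 to 68326544, plus strand, GRCm39). It had 216, 218 and 202 CPM in CCI replicates 1 to 3, against 334, 339 and 314 CPM in PVT_WT replicates 4 to 6. The CCI libraries all lay below the PVT_WT libraries, with little spread in either group. Its level averaged 212 ± 9.15 CPM in CCI and 329 ± 13.4 CPM in PVT_WT (SD, n = 3 each). This is a log2 fold change of -0.63 ± 0.16 (SE, here and below; adjusted p = 0.0101, edgeR). Without CCI replicate 1 its adjusted p was 0.0526 at a log2 fold change of -0.65. The call was also made with DESeq2's size factors (-0.69, adjusted p = 0.0079, edgeR) but not with library totals alone (-0.04, adjusted p = 0.849, edgeR). On the deposited FPKM (reads relative to gene length and library total) Nefl averaged 77.2 ± 3.32 in CCI and 79.4 ± 10.2 in PVT_WT, and by limma on log2(FPKM + 1) its log2 fold change was -0.03 (adjusted p = 0.851). Against TMM, that scale shifted the log2 fold changes of all genes upward by a median of 0.51.

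Nefm, the medium subunit, had 117.5, 105 and 98.8 CPM in CCI, against 55.0, 124 and 58.4 CPM in PVT_WT replicates 4, 5 and 6. PVT_WT replicate 5 lay above every CCI library, while replicates 4 and 6 lay below them. With all libraries Nefm did not pass (log2 fold change 0.44 ± 0.30, adjusted p = 0.251 by edgeR). Without PVT_WT replicate 5 it rose, by 0.89 ± 0.13 on the log2 scale (adjusted p = 0.000141, edgeR), in a fit that called 62% of all genes, 31.5% as higher and 30.5% as lower, and 3 of the 10 genes as higher (Nefm, Map2 and Map1a) and 3 as lower (Nefl, Ina and Map1b). On log2(FPKM + 1) it passed with all libraries (1.06, adjusted p = 0.00532 by limma). Nefh, the heavy subunit whose long tail is heavily phosphorylated in axons (chromosome 11, 4888754 to 4898064, minus strand), had 65.9, 59.9 and 56.2 CPM in CCI, against 48.4, 96.9 and 59.8 CPM in PVT_WT. The groups overlapped, with PVT_WT replicate 5 again highest. Its log2 fold change was -0.17 ± 0.25 (adjusted p = 0.587, edgeR) and 0.14 ± 0.14 without PVT_WT replicate 5 (adjusted p = 0.403).

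Ina encodes alpha-internexin, the subunit that copolymerises with the others in central neurons (chromosome 19, 47003137 to 47013766, plus strand). It had 214, 211 and 174 CPM in CCI, against 256, 199 and 270 CPM in PVT_WT, and the groups overlapped through PVT_WT replicate 5. It did not pass with all libraries (-0.28 ± 0.19, adjusted p = 0.239, edgeR), and without PVT_WT replicate 5 its log2 fold change was -0.42 ± 0.13 (adjusted p = 0.0156). Nefm and Nefl lie beside each other on opposite strands. In the deposited table the span of Nefm (68320039 to 68362295, minus strand) covers all 5233 bp of Nefl, and their exons share 1108 bp in GENCODE M21, an annotation on GRCm38. No strand setting is stated for the counting, so reads in shared exons cannot be assigned to either gene with certainty, and the Nefl and Nefm values carry that limit. Ina shares 456 bp with Nt5c2 and Map1a shares 272 bp with Ppip5k1, both on the opposite strand.

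The make-up of the neurofilament set within each library does not depend on scaling between libraries. It was taken as the share of each subunit in the summed FPKM of Nefl, Nefm, Nefh and Ina, which is a level per gene length. A trend with gene length that differs between libraries, described below, stays in these shares. The median log2 fold change was -0.20 among tested genes of 3188 to 3841 bp, which include Nefl. Among those of 5362 to 6341 bp, which include Nefm, it was 0.17. The part of that trend in the shares was not tested. Nefl made up 38.4, 39.7 and 41.3% in CCI replicates 1 to 3, against 49.6, 48.3 and 46.2% in PVT_WT replicates 4 to 6, a difference of -8.24 percentage points. Nefm made up 12.2, 11.1 and 11.8% in CCI, against 4.77, 10.4 and 5.02% in PVT_WT, a difference of 4.996 percentage points. For Nefl and Nefm the groups did not overlap, and the exact two-sided permutation test gave 0.1, the smallest p that 3 libraries against 3 allow (0.233 adjusted over 7 measures). The Nefh share was 9.90, 9.21 and 9.73% in CCI, against 6.07, 11.7 and 7.44% in PVT_WT (exact p = 0.6), and the Ina share was 39.5, 39.96 and 37.2% in CCI, against 39.5, 29.6 and 41.4% in PVT_WT (exact p = 0.9). PVT_WT replicate 5 held the most Nefh and the least Ina of the 6 libraries. The Ina difference, 2.03 percentage points with all libraries, was -1.58 without PVT_WT replicate 5, 3.38 without replicate 4 and 4.30 without replicate 6, so its direction rested on replicate 5. The Nefh difference, 1.21 percentage points with all libraries, was 2.86 without PVT_WT replicate 5, 0.048 without replicate 4 and 0.732 without replicate 6. The log2 ratio of Nefh to Nefl averaged -2.05 ± 0.08 in CCI and -2.57 ± 0.49 in PVT_WT (SD, n = 3 each, exact permutation p = 0.3). The difference of 0.52 was 0.78 without PVT_WT replicate 5 and 0.29 without PVT_WT replicate 4.

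**Figure D2:**
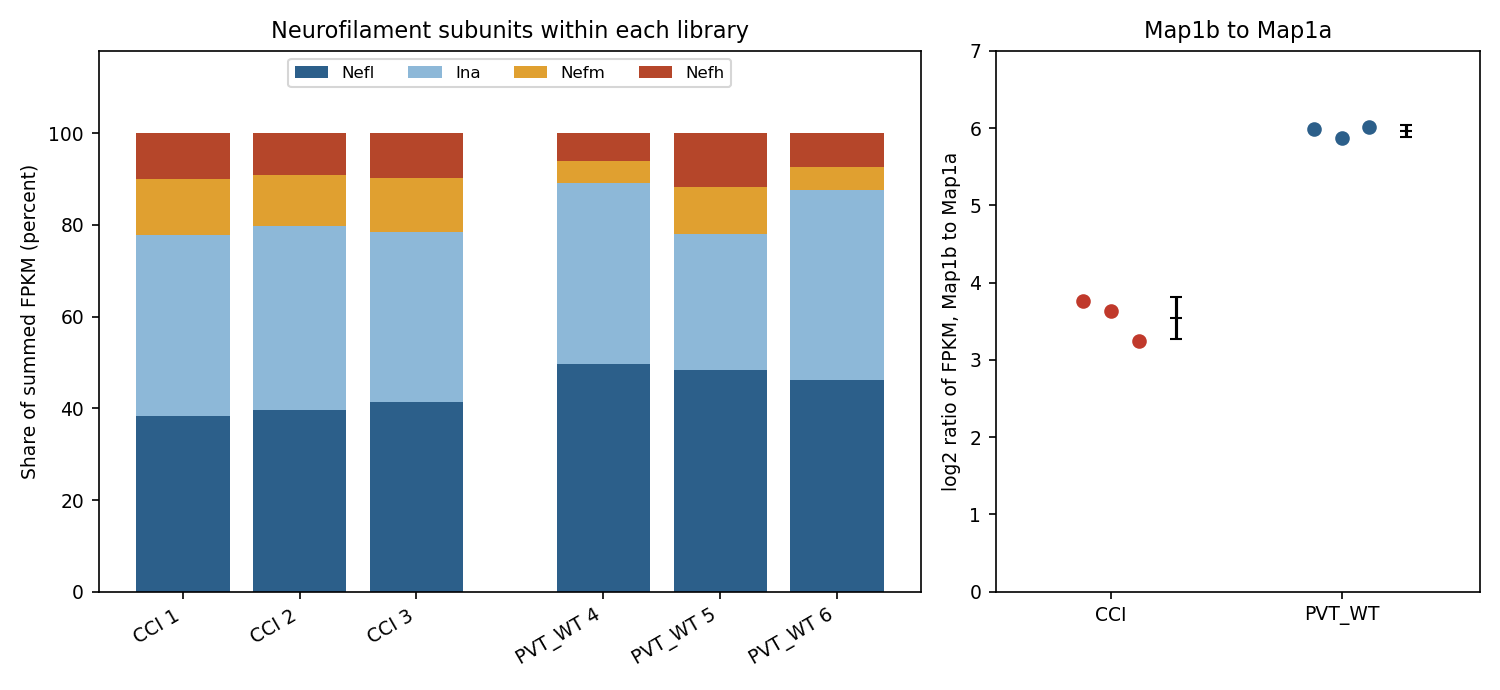
Left, share of each neurofilament subunit in the summed FPKM of Nefl, Ina, Nefm and Nefh, in percent, for each library, with CCI left of PVT_WT. Right, log2 ratio of Map1b FPKM to Map1a FPKM per library, with the mean and SD of 3 libraries. Nefl holds 38.4 to 41.3% in CCI and 46.2 to 49.6% in PVT_WT, and the Map1b to Map1a ratio is 3.24 to 3.76 in CCI and 5.87 to 6.01 in PVT_WT.

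Among the microtubule-associated proteins, Map1b fell while Map1a and Map2 rose. The 250 bases before the start of these 3 genes are shown because the counts of the genes moved in opposite directions. They are from RefSeq on GRCm38.p6, written 5′ to 3′ on the strand of the gene. Capitals mark matches, in either orientation and allowing overlaps, to 4 motifs: the GC box (GGGCGG), the core promoter element bound by TBP (TATAAA), the site of the factor NF-Y (CCAAT) and the cAMP response element (TGACGTCA).
Map1b, chr13:99516603-99516852, minus strand: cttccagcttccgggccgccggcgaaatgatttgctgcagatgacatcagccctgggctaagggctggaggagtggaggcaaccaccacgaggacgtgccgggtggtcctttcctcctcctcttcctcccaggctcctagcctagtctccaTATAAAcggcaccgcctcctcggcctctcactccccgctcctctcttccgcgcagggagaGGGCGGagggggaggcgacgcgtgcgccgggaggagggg
Map1a, chr2:121289352-121289601, plus strand: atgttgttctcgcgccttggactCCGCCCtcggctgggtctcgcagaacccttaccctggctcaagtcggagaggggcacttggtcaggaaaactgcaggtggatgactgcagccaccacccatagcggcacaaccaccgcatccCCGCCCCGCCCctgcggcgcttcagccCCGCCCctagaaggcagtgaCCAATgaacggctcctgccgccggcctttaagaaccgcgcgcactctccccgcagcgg
Map2, chr1:66175079-66175328, plus strand: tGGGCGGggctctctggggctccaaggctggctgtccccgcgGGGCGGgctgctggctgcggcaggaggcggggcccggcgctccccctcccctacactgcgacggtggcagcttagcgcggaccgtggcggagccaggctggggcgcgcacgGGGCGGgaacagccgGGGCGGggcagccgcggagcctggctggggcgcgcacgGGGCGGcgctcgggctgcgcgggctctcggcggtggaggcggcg
GGGCGG was found 1 time in the Map1b window, 4 times in that of Map1a and 5 times in that of Map2. It occurs in 32.7% of the 32851 RefSeq windows of this length. TATAAA was found in the Map1b window (1 match) and in neither other, and in 12.4% of all windows. CCAAT was found 1 time in the Map1a window (33.85% of all windows), and TGACGTCA in none of the 3 (1.55% of all). The windows hold 66.4% G and C in Map1b, 66.0% in Map1a and 81.2% in Map2, against a median of 52.4% over all windows. Of the 10 genes, 5 had an entry in that RefSeq table. The RefSeq start of Map1b was found in no transcript of GENCODE M21. The matches describe letters in these windows and no binding was measured. A relation of the matches to the fold changes was not tested.

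Map1b encodes a microtubule-associated protein abundant in growing axons and in neurons that stay plastic. Map1b (ENSMUSG00000052727) is on chromosome 13 (99557954 to 99653048, minus strand, GRCm39). It had 38535, 43594 and 36066 counts in CCI replicates 1 to 3, against 117071, 113628 and 150735 counts in PVT_WT replicates 4 to 6. In PVT_WT replicates 4 and 6 no gene of the table had more counts, and it ranked 4 in replicate 5 and 7, 7 and 10 in the CCI libraries. It took 0.482, 0.481 and 0.343% of all counts in CCI, against 0.940, 0.921 and 0.976% in PVT_WT. Scaled by TMM, it had 3862, 3980 and 2779 CPM in CCI, against 10446, 13431 and 11276 CPM in PVT_WT. No CCI library came near a PVT_WT library, and CCI replicate 3 was lowest. Map1b averaged 3540 ± 662 CPM in CCI and 11718 ± 1540 CPM in PVT_WT (SD, n = 3 each), 3.31-fold lower in CCI (log2 fold change -1.73 ± 0.31, adjusted p = 0.00232, edgeR). It passed as lower in each of the 17 alternative settings tried, at log2 fold changes from -2.93 to -0.97 and adjusted p up to 0.0196, that of the fit without CCI replicate 1.

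Map1a (ENSMUSG00000027254), the close relative that predominates in mature neurons and dendrites, is on chromosome 2 (121120081 to 121141313, plus strand, GRCm39). It had 219, 245 and 226 CPM in CCI, against 126, 176 and 134 CPM in PVT_WT. Its groups did not overlap, and PVT_WT replicate 5 was the highest control. Map1a averaged 230.2 ± 13.7 CPM in CCI and 146 ± 27.0 CPM in PVT_WT (SD, n = 3 each), for a log2 fold change of 0.66 ± 0.18 (adjusted p = 0.0152, edgeR). Its adjusted p was 0.0606 without CCI replicate 2, 0.0608 without PVT_WT replicate 4 and 0.0676 without PVT_WT replicate 6, and thus missed the threshold.

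Map2 (ENSMUSG00000015222), the classic marker of dendrites, is on chromosome 1 (66214432 to 66481742, plus strand). It had 322, 313 and 258 CPM in CCI, against 174, 218 and 178 CPM in PVT_WT, with no overlap. Map2 averaged 298 ± 34.4 CPM in CCI and 190 ± 24.3 CPM in PVT_WT (SD, n = 3 each; log2 fold change 0.65 ± 0.18, adjusted p = 0.0162, edgeR). Leaving out CCI replicate 1, CCI replicate 2, PVT_WT replicate 4 or PVT_WT replicate 6 took its adjusted p to 0.0792, 0.0623, 0.0628 and 0.0712. Within a library the log2 FPKM ratio of Map1b to Map1a was 3.76, 3.64 and 3.24 in CCI, against 5.99, 5.87 and 6.01 in PVT_WT. The groups did not overlap, and CCI minus PVT_WT was -2.41 (exact permutation p = 0.1, the smallest possible, 0.233 adjusted over 7 measures).

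Mapt encodes tau, which binds axonal microtubules (chromosome 11, 104122216 to 104222916, plus strand). It had 570, 582 and 597 CPM in CCI, against 717, 274 and 685 CPM in PVT_WT. The CCI libraries lay close together between PVT_WT replicate 5 and the other 2 controls. Its log2 fold change was 0.06 ± 0.34 (adjusted p = 0.889, edgeR), and -0.29 ± 0.13 without PVT_WT replicate 5 (adjusted p = 0.0671). The log2 FPKM ratio of Map2 to Mapt averaged -2.10 ± 0.20 in CCI and -2.57 ± 0.96 in PVT_WT (SD, n = 3 each, exact permutation p = 0.4). The difference of 0.46 was 1.02 without PVT_WT replicate 5, 0.16 without replicate 4 and 0.21 without replicate 6.

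Tubb3, the beta-tubulin that is largely restricted to neurons (chromosome 8, 124138163 to 124148754, plus strand), had 363, 472 and 246 CPM in CCI, against 461, 193 and 415 CPM in PVT_WT. The groups overlapped across nearly their whole range, with CCI replicate 3 and PVT_WT replicate 5 low. Its log2 fold change was 0.02 ± 0.35 (adjusted p = 0.971, edgeR) and -0.31 ± 0.22 without PVT_WT replicate 5 (adjusted p = 0.238). Stmn2, a neuronal stathmin of growth cones and axons (chromosome 3, 8574420 to 8626666, plus strand), had 502, 554 and 437 CPM in CCI, against 571, 766 and 627 CPM in PVT_WT. Its groups did not overlap, but the difference did not pass (-0.40 ± 0.21, adjusted p = 0.136, edgeR). On FPKM it averaged 109 ± 11.95 in CCI and 94.2 ± 2.64 in PVT_WT (SD, n = 3 each), with the sign reversed.

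Per gene length, the order of the 10 genes differed in part between the groups. In CCI the FPKM means ran Map1b (275 ± 50.8), Tubb3 (237 ± 71.7), Stmn2 (109 ± 11.95), Mapt (95.3 ± 2.23), Nefl (77.2 ± 3.32) and Ina (75.8 ± 8.43), then Map1a (23.3 ± 1.01), Nefm (22.8 ± 2.30), Map2 (22.2 ± 2.62) and Nefh (18.7 ± 1.71; SD, n = 3 each). In PVT_WT they ran Map1b (597 ± 17.8), Tubb3 (162 ± 80.03), Stmn2 (94.2 ± 2.64), Nefl (79.4 ± 10.2), Mapt (63.1 ± 33.2) and Ina (61.7 ± 17.0), then Nefh (13.5 ± 2.91), Nefm (10.7 ± 3.52), Map1a (9.61 ± 0.307) and Map2 (9.32 ± 0.222; SD, n = 3 each). Neighbours in this order whose means lay within their summed SDs were, in CCI, Map1b and Tubb3, Stmn2 and Mapt, Nefl and Ina, and the last 4 genes. In PVT_WT they were Tubb3 and Stmn2, the run of Nefl, Mapt and Ina, and the last 4 genes.

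Fold changes depended on gene length across the whole table. Tested genes were put into 10 bins of equal size by the length given in the table, which is the summed length of all annotated exons. The median log2 fold change was -0.32 in the shortest bin (255 to 1825 bp) and 0.71 in the longest (10100 to 123179 bp). In the shortest bin 12.2% of genes rose and 30.5% fell, and in the longest 56.4% rose and 9.68% fell. The 3 libraries of each group went the same way. The longest bin minus the shortest (median log2 CPM relative to the mean of each gene) was 0.53, 0.42 and 0.55 in CCI replicates 1 to 3. It was -0.38, -0.74 and -0.44 in PVT_WT replicates 4 to 6. That mean is over the same 6 libraries, so the opposite signs restate the difference between groups and show no trend within a library by itself. The count-weighted mean gene length was 6153 to 6311 bp in CCI and 5416 to 5460 bp in PVT_WT.

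**Figure D3:**
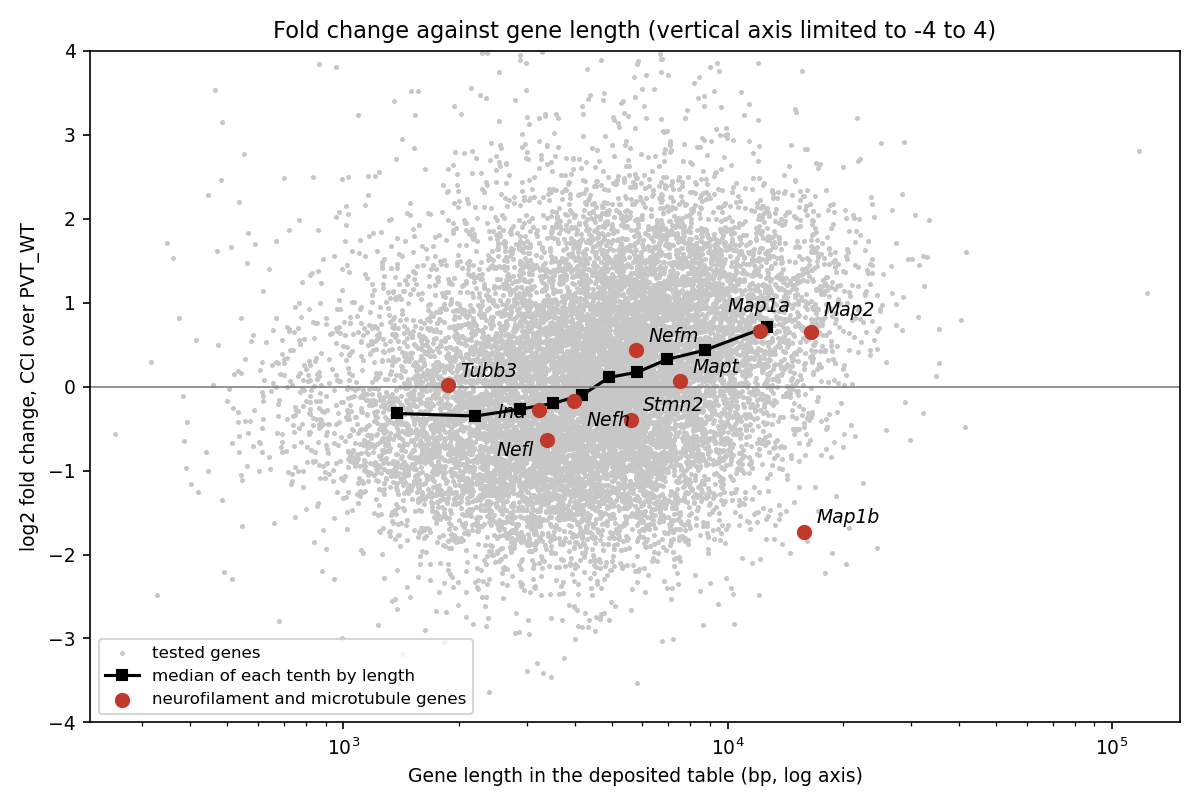
Log2 fold change (CCI over PVT_WT) against gene length in bp on a log axis, for the tested genes (grey), with the median of each of 10 length bins (black squares) and the 10 neurofilament and microtubule genes (red). The medians run from -0.32 in the shortest bin to 0.71 in the longest, where Map1a and Map2 lie near the median of the bin and Map1b lies far below it.

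Read against that trend, Map2 (16456 bp) and Map1a (12166 bp) lay near the median of the longest bin. Their log2 fold changes were 0.07 and 0.05 below it. Against mean level they stood otherwise, since the most abundant of 10 bins by mean CPM, which holds both, had a median of -0.85. Map1b, at 15846 bp nearly as long as Map2, lay 2.44 below that median, and 16 of the 1426 genes of that bin had a lower fold change. Nefl (3380 bp) lay 0.43 below the median of its bin, and 31.3% of the 1426 genes there had a lower fold change. Stmn2 (5602 bp) lay 0.57 below and Nefm (5782 bp) 0.27 above the median of the bin that holds both. Tubb3 (1868 bp), the shortest of the 10, lay 0.37 above its own. Nefh (3994 bp), Ina (3240 bp) and Mapt (7531 bp) lay between 0.07 and 0.26 below the medians of their bins.

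The test was repeated with an offset that removes a smooth trend on length from each library. With it 48% of all tested genes still passed (22.4% higher and 25.7% lower) and, of the 10 genes, 0 rose and 2 fell by edgeR. Map1b was at -2.54 ± 0.31 (adjusted p = 0.000499, edgeR) and Nefl at -0.47 ± 0.16 (adjusted p = 0.0394). Map1a was at 0.03 ± 0.18 (adjusted p = 0.889) and Map2 at -0.19 ± 0.17 (adjusted p = 0.389), so neither passed as higher with the offset on length alone. In that fit Nefl missed the threshold when any 1 CCI library, PVT_WT replicate 4 or PVT_WT replicate 6 was left out (adjusted p = 0.0502 to 0.118), whereas Map1b passed whichever library was left out. Without PVT_WT replicate 4, Stmn2 also passed as lower (-0.70, adjusted p = 0.0394, edgeR). Without PVT_WT replicate 5 the fit called Nefm higher (0.75, adjusted p = 0.000546, edgeR) and Nefl, Mapt, Map1b and Stmn2 lower. The share of all tested genes called with the offset and a library left out is not given here. With no offset, 31.5% of all tested genes were higher and 30.5% lower without PVT_WT replicate 5.

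Coding length, taken from GENCODE M21, ranks the 10 genes differently, since Stmn2 has 537 coding bp in 5602 bp of exon, and Map1a 9042 in 12166. With an offset on coding length, chosen after seeing the data, 44.5% of genes passed (20.5% higher and 23.9% lower), and 0 of the 10 rose and 4 fell. Map1b was at -2.93 ± 0.29 (adjusted p = 0.000371, edgeR), Nefl at -0.67 ± 0.16 (adjusted p = 0.00905), Nefh at -0.82 ± 0.26 (adjusted p = 0.0338) and Map1a at -0.65 ± 0.18 (adjusted p = 0.0182). The direction of Map1a thus turned with this measure of length.

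Abundance moved with the fold changes as well. In the least abundant bin of 10 by mean CPM the median log2 fold change was 0.90, and in the most abundant bin it was -0.85, and that bin held 8 of the 10 genes, all but Nefm and Nefh. With an offset on length and then on mean level 38.1% of genes passed (18.8% higher and 19.3% lower), and 5 of the 10 genes rose and 1 fell. Map1b was still lower, at -0.97 ± 0.23 (adjusted p = 0.0125, edgeR). Tubb3 (1.16 ± 0.40, adjusted p = 0.0489), Map1a (0.79 ± 0.14, adjusted p = 0.00402), Ina (0.70 ± 0.18, adjusted p = 0.0153), Map2 (0.63 ± 0.15, adjusted p = 0.0109) and Stmn2 (0.50 ± 0.15, adjusted p = 0.0316) rose in that fit, while Nefl was at 0.39 ± 0.14 (adjusted p = 0.0555). Of the 10 genes, Map1b is the one called in the same direction in all 4 fits.

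**Figure D4:**
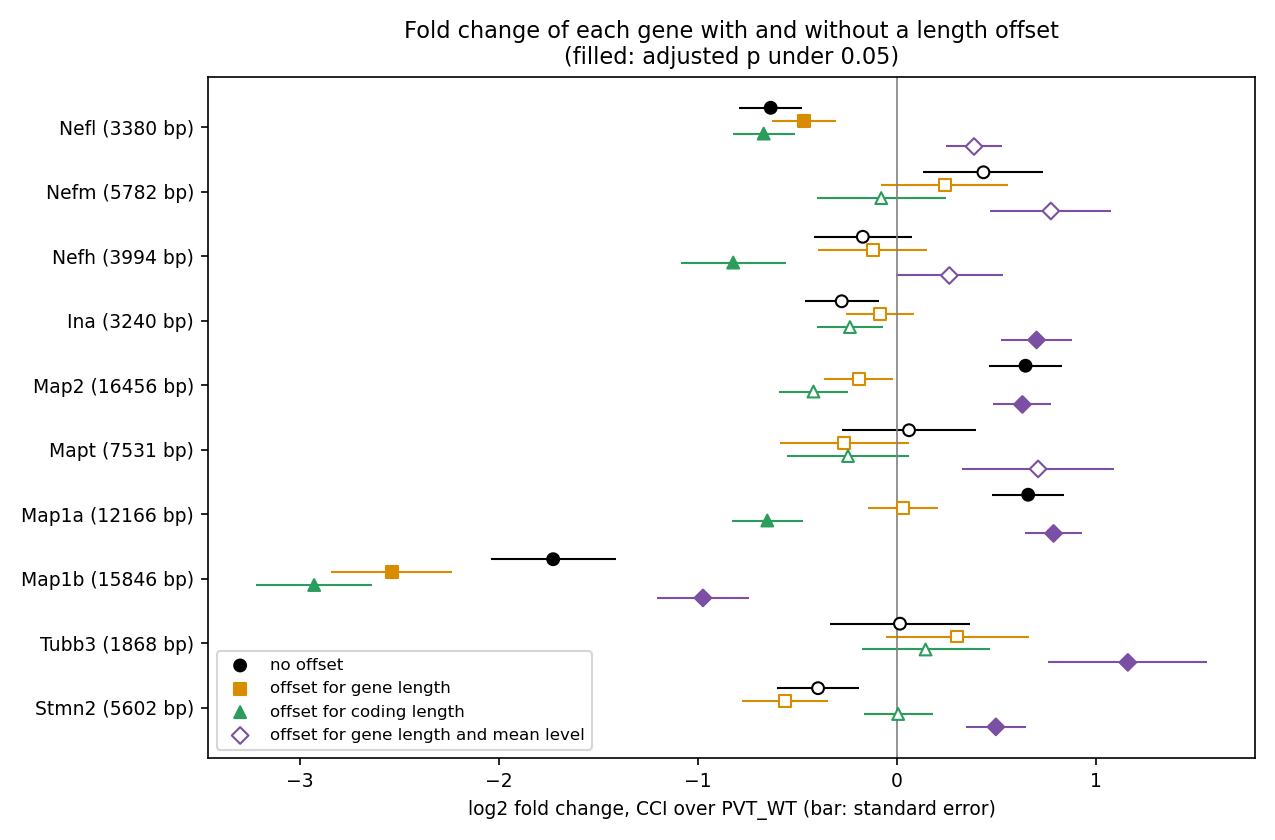
Log2 fold change (CCI over PVT_WT) and standard error of each gene with no offset, with an offset on gene length, on coding length, and on gene length and mean level. Filled symbols passed an adjusted p of 0.05. Map1b is filled and below 0 in each fit (-0.97 to -2.93), while Map1a lies between -0.65 and 0.79.

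Other genes of the same machinery were taken from lists by role. As background for the counts below, the length offset called 22.4% of all tested genes higher and 25.7% lower. The offset on length and mean level called 18.8% and 19.3%. With 1 library left out, 2881 to 4560 of 14435 to 14497 tested genes were higher and 2630 to 4415 lower. Of 15 other tubulin genes 9 fell and none rose (median -0.81, against 0.06 over all tested genes, of which 27% rose and 25.3% fell). Tubb5, a widely expressed beta-tubulin, averaged 593 ± 53.9 CPM in CCI and 1481 ± 508 CPM in PVT_WT, where replicate 5 was highest at 2060 CPM, a log2 fold change of -1.32 ± 0.28 (adjusted p = 0.00458, edgeR). Tubd1, Tubg1 and Tubb2b were at -1.64, -1.15 and -1.12. These genes are short, with a median of 2263 bp, and with the length offset 2 rose and 6 fell. With the offset on length and mean level 4 rose and 4 fell. Without TMM scaling 3 of the list rose and 2 fell, where 6477 of all 14259 tested genes rose and 1386 fell. The counts of the list thus moved with the scaling, as those of all genes did. Tubulin genes are close copies of each other, and reads shared between them may be counted unevenly.

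Among 3 other stathmin genes Stmn4 fell (-1.04 ± 0.25, adjusted p = 0.00906, edgeR), Stmn3 rose (0.70 ± 0.25, adjusted p = 0.0425) and Stmn1, at 0.05 ± 0.24, did not pass. None of the 3 rose with DESeq2's size factors, or without CCI replicate 1, CCI replicate 2, PVT_WT replicate 4 or PVT_WT replicate 6, so the call of Stmn3 was lost in each of these. With the offset on length and mean level 2 of the 3 rose and 0 fell. Of 11 partners of neurofilaments 7 rose and 2 fell (median 1.13), against 27% higher and 25.3% lower over all tested genes. The number lower was 1 without any 1 of the CCI libraries. The giant linkers Dst and Macf1, which join filaments to microtubules and actin, rose by 1.61 ± 0.15 and 1.54 ± 0.16 on the log2 scale, and the axonal spectrin gene Sptbn4 by 1.52 ± 0.30. Prph, the peripherin subunit typical of peripheral neurons, fell to 4.05 ± 1.27 CPM in CCI, against 12.1 ± 1.61 CPM in PVT_WT (-1.59 ± 0.28). This list is long, with a median of 17492 bp, and with the length offset 1 rose and 5 fell. Dst and Macf1 were then at 0.18 and 0.25 and did not pass (adjusted p = 0.380 and 0.187). With the offset on length and mean level 2 of the list rose and 2 fell. The 2 that rose were Dst and Macf1, at 0.79 and 0.98 (adjusted p = 0.00691 and 0.00152, edgeR).

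Of 22 other microtubule-associated genes 8 rose, 4 fell and 10 did not pass, against 27% higher and 25.3% lower over all tested genes. Dcx, the doublecortin gene of young neurons, averaged 25.9 ± 0.968 CPM in CCI and 7.69 ± 0.649 CPM in PVT_WT (1.75 ± 0.18, adjusted p = 0.000236, edgeR), and Map7 and Clasp1, which act on kinesin transport and on growing plus ends, rose by 1.72 and 1.42. Map1lc3b, the LC3 protein of autophagosomes, fell to 387 ± 24.6 CPM in CCI, against 1634 ± 436 CPM in PVT_WT (-2.08 ± 0.25). With the length offset 4 of this list rose and 7 fell, and with the offset on length and mean level 5 rose and 3 fell. On log2(FPKM + 1) 12 rose and 2 fell, where 6506 of all 14259 tested genes rose and 1403 fell. In the fit with no offset the number higher was 5 without CCI replicate 1, CCI replicate 2 or PVT_WT replicate 6. The number lower was 7 without PVT_WT replicate 5, and 2 without CCI replicate 2, CCI replicate 3 or PVT_WT replicate 6.

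The next 2 lists stand against 27% of all tested genes higher and 25.3% lower. Of 16 genes for severing, tubulin folding and tubulin modification 5 rose and 2 fell, and 6 fell without PVT_WT replicate 5. The tubulin glutamylase subunit gene Ttll1 fell (-2.06 ± 0.19), and the deglutamylase gene Agtpbp1 (1.20 ± 0.18), the folding cofactor gene Tbcd (1.23 ± 0.24) and the glutamylase gene Ttll7 (0.91 ± 0.20) rose. Of 16 axonal motor genes 7 rose and 1 fell, and 3 fell without PVT_WT replicate 5. The kinesin heavy chain gene Kif5a, whose motor carries neurofilaments, averaged 320 ± 56.5 CPM in CCI and 158 ± 19.8 CPM in PVT_WT (1.01 ± 0.20), and Klc2 (1.75) and Dctn1 (0.89) rose too, while the dynein chain gene Dync1i1 fell (-1.65 ± 0.23).

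Of 17 kinase and phosphatase genes that act on tau and neurofilaments 4 rose and 5 fell, and 3 fell without CCI replicate 1. These counts stand near the 27% higher and 25.3% lower over all tested genes. The tau kinase genes Ttbk1 (1.97 ± 0.25) and Mark2 (1.01 ± 0.20) rose, and the JNK3 gene Mapk10 (-1.26 ± 0.17) fell. With the length offset the counts higher and lower were 2 and 5 for severing and modification, 4 and 3 for motors, and 3 and 5 for kinases and phosphatases. With the offset on length and mean level they were 5 and 2, 12 and 3, and 4 and 3. Over all tested genes that fit called 18.8% higher and 19.3% lower. On log2(FPKM + 1) they were 8 and 1, 12 and 1, and 8 and 3, where 6506 of all 14259 tested genes were higher and 1403 lower.

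**Figure D5:**
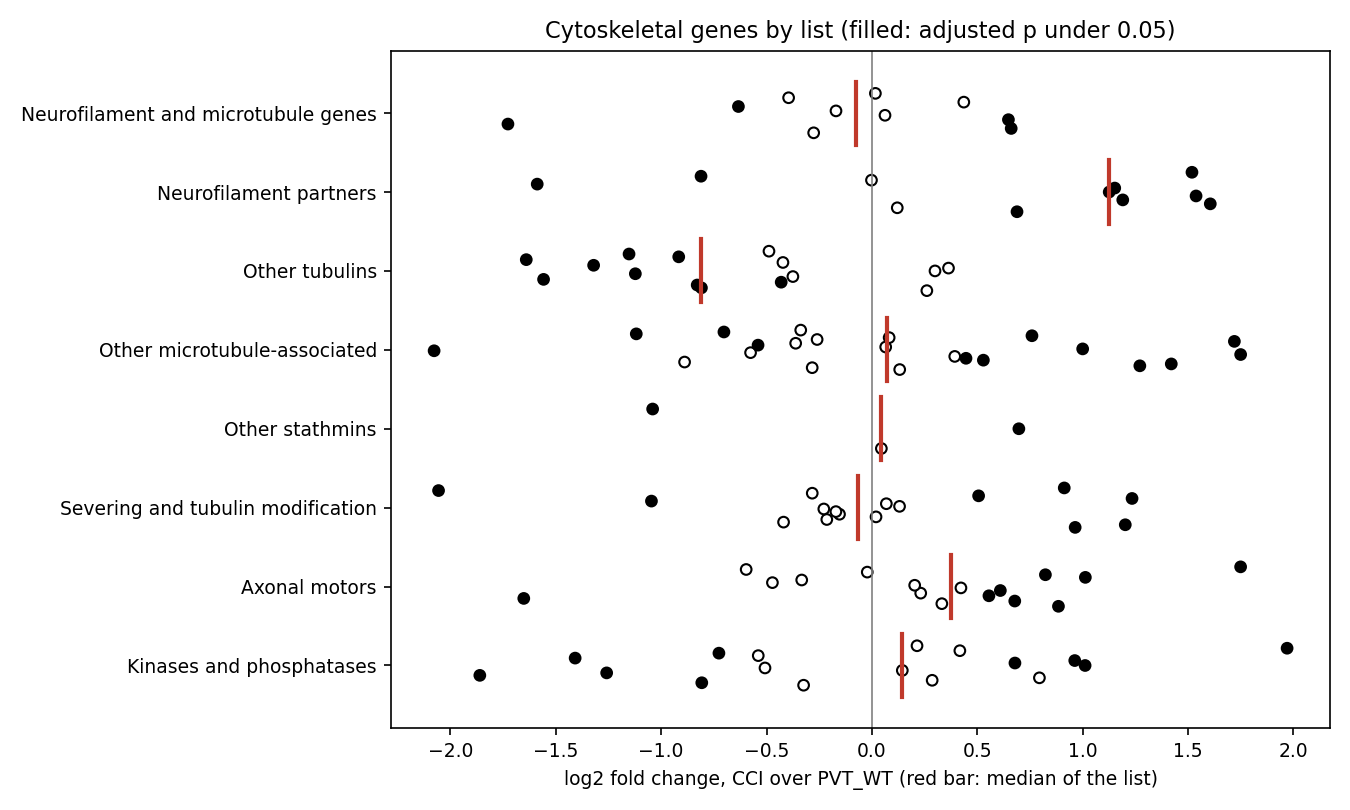
Log2 fold change (CCI over PVT_WT) of each tested gene by list, with filled points for an adjusted p under 0.05 and a red bar at the median of the list. The bar is at -0.08 for the neurofilament and microtubule genes, -0.81 for the other tubulins and 1.13 for the neurofilament partners.

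Summed levels of cell type markers differed between the same libraries. With all libraries, the counts of markers higher and lower stand against 27% and 25.3% of all tested genes. With 1 library left out, 2881 to 4560 of 14435 to 14497 tested genes were higher and 2630 to 4415 lower. The labelled tissue was checked first: 12 thalamic markers stood at 1946 to 2696 CPM in CCI and 5878 to 8585 CPM in PVT_WT, with 8 lower and 1 higher, and 0 higher without any 1 of the CCI libraries or PVT_WT replicate 4. Cortical and hippocampal markers (13 genes, 12 tested) stood at 219 to 258 CPM in CCI and 86.1 to 117 CPM in PVT_WT, with 8 higher and none lower, and 5 higher without CCI replicate 3 or without PVT_WT replicate 6. GABAergic markers (11 genes, 10 tested) stood at 135 to 508 CPM in CCI and 72.0 to 130 CPM in PVT_WT, with 7 higher and none lower, and 4 higher without CCI replicate 3. No thalamic marker was at 0 in any library, and Dlx2 of the GABAergic list was at 0 in at least 1. Among 13 pan-neuronal markers 1 rose and 3 fell, and 7 fell without PVT_WT replicate 5, with a summed level of 4106 to 4402 CPM in CCI and 8045 to 11215 CPM in PVT_WT. Elavl3 rose, at 164 ± 14.6 CPM in CCI and 79.5 ± 3.14 CPM in PVT_WT (1.05 ± 0.15), while Elavl4 (-1.06 ± 0.22) and Syn1 (-0.68 ± 0.17) fell. Snap25, which fell too, averaged 1472 ± 86.8 CPM in CCI and 5553 ± 1361 CPM in PVT_WT (-1.92 ± 0.29), and so made up most of the difference in the sum. With the length offset the counts higher and lower were 0 and 10 for thalamic and 8 and 0 for cortical and hippocampal markers. They were 7 and 0 for GABAergic and 1 and 6 for pan-neuronal markers. With the offset on length and mean level the counts of these 4 lists were 0 and 7, 6 and 0, 4 and 0, and 4 and 1. Over all tested genes the length offset called 22.4% higher and 25.7% lower, and that on length and mean level 18.8% and 19.3%.

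Among glial markers, 14 oligodendrocyte genes summed to 18954 to 24949 CPM in CCI and 7285 to 14070 CPM in PVT_WT, with 10 higher and none lower. Astrocyte markers (11 genes) summed to 3857 to 4579 CPM in CCI and 8680 to 11416 CPM in PVT_WT, with 2 higher (Gfap and Aqp4) and 4 lower. Aldoc, 1 of those lower, averaged 1117 ± 197 CPM in CCI and 5333 ± 800 CPM in PVT_WT, and so made up most of the difference in the sum. Microglia markers (10 genes) summed to 215 to 285 CPM in CCI and 273 to 316 CPM in PVT_WT. Of these, 3 were higher and 1 lower, and 1 was higher without CCI replicate 2 or CCI replicate 3. With the length offset the counts higher and lower were 10 and 1 for oligodendrocyte, 2 and 6 for astrocyte and 3 and 1 for microglia markers. With the offset on length and mean level they were 12 and 0, 3 and 2, and 1 and 1. These offsets called 22.4% and 18.8% of all tested genes higher, and 25.7% and 19.3% lower. Mitochondrial transcripts took 1.65 to 1.88% of counts in CCI and 0.686 to 1.28% in PVT_WT. The part of these shifts in the values of the neurofilament and microtubule genes was not tested.

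Genes with the most similar profile were found by the root mean square distance between mean-centred log2 CPM over the 6 libraries. The 9734 candidates were tested genes with a mean of at least 10 CPM. Symbols of Gm and digits, symbols ending in Rik and accession-like symbols were left out. Nearest to Map1b were Chchd4 (distance 0.05), Mcfd2 (0.05) and Tmx1 (0.06), with log2 fold changes of -1.81, -1.81 and -1.74. Nearest to Nefl were Eif4a3, Ctsh and Tmem177 (each 0.04), with -0.64, -0.63 and -0.65. Nearest to Stmn2 were Eif3m, Park7 and Mrpl12 (each 0.03), and nearest to Nefh were Bcdin3d, Pfdn4 and Cetn3 (0.05 to 0.07). None of these neighbours is itself one of the 10 genes, and their lengths, 1532 to 5192 bp, are below that of Map1b.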

How the data were processed

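The 10 genes and all lists were chosen with earlier results of these data known. Libraries were made from poly-A RNA with random priming, per the labels' protocols. Named in the submitters' processing notes are HISAT2 2.1.0 and HTSeq 0.9.1, the trimmer fastp 0.22.0, StringTie 2.2.1, DESeq 1.38.3 and the build GRCm39, with no strand setting. Per the file headers, the authors deposited a read count and an FPKM value per gene and library, and a gene length. The FPKM was checked to equal the count relative to that length and to the column total.

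The deposited counts went into edgeR 4.0.16 (R 4.3.3; TMM, filterByExpr, quasi-likelihood F-test, Benjamini-Hochberg adjustment over 14259 genes, threshold 0.05). Each SE was obtained as the absolute log2 fold change over the square root of F. Offsets were lowess fits (span 0.3) per library of log2 CPM, centred by gene, on log2 length, then on mean log2 CPM. Coding lengths came from GENCODE M21 by Ensembl identifier (14220 tested genes, 99.7%, and all 10 genes). Alternatives were other scalings and filters, DESeq2 1.42.0, limma 3.58.1 (voom, and log2 of FPKM plus 1 or 0.1), the offsets, and each library left out. Named list genes are up to 4 per list with the smallest p (1 such gene is not reported here), and nearest profiles are the 3 nearest genes to each of Nefl, Nefh, Map1b and Stmn2. Of the table's genes, 51 have no symbol and 4001 no count. The code was tested on simulated data.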

Additional observations from a re-analysis of the deposited data

How the results depend on the processing

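Map1b was lower in all 17 alternatives. Scaling decided the balance of calls. Genes higher and lower numbered 3853 and 3608 (51.6% higher) with TMM, 6477 and 1386 (82.4%) with no scaling beyond the library total, 6506 and 1403 (82.3%) on log2(FPKM + 1) and 6600 and 1265 (83.9%) on log2(FPKM + 0.1), and of the 10 genes 1 was lower in each of the last 3. In those 3, signs turned for Ina (0.30, 0.33 and 0.33), Nefh (0.47, 0.46 and 0.48) and Stmn2 (0.22, 0.21 and 0.21). Tubb3 turned to -0.035 with DESeq2's size factors, -0.034 with its Wald test and -0.0074 with no filter. The length offset left 0 of the 10 higher, with Map2 at -0.19 and Mapt at -0.26. The coding length offset left 0 higher and 4 lower, with Map1a at -0.65, Map2 at -0.42, Mapt at -0.24, Nefm at -0.078 and Stmn2 at 0.0075. The length and mean level offset gave 5 higher and 1 lower, with Nefl at 0.39, Ina at 0.70, Nefh at 0.26 and Stmn2 at 0.50. The Nefm share differed by 7.60 percentage points on raw counts, against 4.996 on FPKM. The cause of these changes was not tested. Leaving out 1 library gave 2881 to 4560 genes higher and 2630 to 4415 lower, and 0 to 3 of the 10 genes higher and 1 to 3 lower. Under the length offset, a combination chosen after seeing the data, 0 to 1 of the 10 genes were higher and 1 to 4 lower. The share over all genes in that combination is not given here. With 1 library left out and no offset, log2 fold changes ran from -0.29 to 0.23 for Mapt, from -0.40 to 0.14 for Nefh and from -0.31 to 0.23 for Tubb3. The length trend then ran from 0.89 (without PVT_WT replicate 5) to 1.08. No paired analysis was possible because the groups share no replicate numbers.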
